A study of Mus musculus with 9 samples.

Results

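The step from 1.5 to 3 days of RANKL treatment, in which committed precursors become osteoclasts (OCs), was followed by setting 3 arrays of mouse myeloid precursors (MPs) given CSF-1 and RANKL for 3 days against 3 arrays of MPs given the same factors for 1.5 days. These were 6 of the 9 arrays of the series, and the members were the 14860 genes that could be named among 23332 transcript clusters, 1 cluster per gene. MPs came from the bone marrow of C57Black6 mice and had been expanded for 3 days in 100 ng/ml CSF-1 per the labels before they were seeded in a commercial OC culture medium, a step that all groups shared. The remaining 3 arrays held MPs kept in CSF-1 alone, without RANKL, for which the labels give no culture time. By the labels, the 3-day and 1.5-day groups differed only in time. Longer RANKL treatment can therefore not be told apart from longer culture. The study's methods call all of its data points biological replicates, while the labels name no separate mice or cultures, so p-values rest on array-to-array spread that may be partly technical.

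OCs are multinucleated cells that arise when mononuclear precursors of the macrophage lineage fuse, and they dissolve bone by pumping acid and secreting proteases into a sealed space beneath the cell. CSF-1 keeps the precursors alive and dividing, and RANKL, a cytokine of the TNF family, switches on NF-kB, c-FOS and NFATc1, the transcription factors (TFs) that in turn induce fusion proteins, the proton pump and the matrix-degrading enzymes. Commitment is set by these TFs in the first days, and maturation is the later stage in which effector genes accumulate and the cells leave the division cycle.

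Total RNA was read on exon arrays, and all values are log2 signals after RMA normalization, so that a difference of 1 is a doubling of signal. Array medians lay between 5.02 and 5.22, the highest on replicate 3 at 3 days. Replicate 1 stood apart from the other two in both groups. Over all genes, the standard deviation (SD) of the differences between 2 arrays of the 3-day group was 0.418 for replicates 1 and 2 and 0.412 for replicates 1 and 3, against 0.290 for replicates 2 and 3. In the 1.5-day group the same values were 0.285, 0.302 and 0.231. The 3-day and 1.5-day arrays of the same number differed by 0.355, 0.257 and 0.287 on this measure, so the time step was no larger, gene by gene, than the spread inside the 3-day group.

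Accordingly, no gene passed the test across all genes. With limma on all 9 arrays and Benjamini-Hochberg adjustment, 0 of 14860 genes (0%) had an adjusted p under 0.05 between RANKL 3 days and RANKL 1.5 days, and the smallest adjusted p was 0.47. At an unadjusted p under 0.05 there were 771 genes (5.19%), 397 higher and 374 lower at 3 days, where 743 would be expected if no gene differed. The methods' t-test, an unpaired test of each gene on the 6 arrays, also gave 0 after adjustment and 411 without it. In the same 9-array fit, and with arrays shared between the comparisons, 59 genes (0.397%) were called at 3 days against CSF-1 alone and 62 (0.417%) at 1.5 days against CSF-1 alone. The differences below are therefore given as values, with the standard error (SE) from the limma fit, and the adjusted p was 0.82 unless another value is printed. For a single gene, the smallest two-sided p that an exact permutation of 3 and 3 arrays allows is 0.1.

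Another way to read the arrays is to ask for which genes the 3 values at 3 days all lay on one side of the 3 values at 1.5 days. The groups did not overlap for 1009 genes (6.79%), of which 508 (3.42%) were higher and 501 (3.37%) lower at 3 days. Paired by replicate number, which the labels do not state to be a pairing, 1823 genes (12.3%) were higher at 3 days in all 3 pairs. Another 1713 (11.5%) were lower in all 3. A log2 difference of at least 1 was reached by 25 genes (0.168%) upwards and 15 genes (0.101%) downwards, of which 12 and 10 had groups that did not overlap. Over all genes the median difference was -0.01, and these shares are the background for every list below.

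Genes of the resorbing cell were among those furthest above their 1.5-day level. The 12 largest differences upwards without overlap were those of Akr1c18, Mmp9, Oscar, Mt3, Slc9b2, Cbr2, Slc18a1, Lrrtm2, Magea4, Calcr, Myo1d and Edil3. Akr1c18, an aldo-keto reductase that inactivates progesterone, had log2 signals of 6.86, 7.12 and 7.62 at 3 days, against 2.87, 4.78 and 4.90 at 1.5 days. Its lowest 3-day array lay well above its highest 1.5-day array, and the mean difference was 3.02 ± 0.52 (SE, n = 3 arrays each). Mmp9, the gelatinase that OCs release onto bone, had 10.95, 11.86 and 11.94 at 3 days, against 7.04, 10.47 and 10.55 at 1.5 days. Its difference of 2.23 ± 0.88 (SE) rested largely on replicate 1 at 1.5 days, and within replicates 2 and 3 it was 1.39 in each. Oscar, a receptor that binds collagen and signals through the FcRγ chain, had 6.39, 7.85 and 8.05 at 3 days, against 4.21, 5.87 and 6.16 at 1.5 days. The 3 pairs of Oscar differed by similar amounts, 2.18, 1.98 and 1.89, and the mean difference was 2.02 ± 0.58 (SE).

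The stretches upstream of Akr1c18 and Oscar are shown because these genes had the first and the third largest differences and because PU.1, the lineage TF at the centre of the study, reads the letters GAGGAA as its core. For Mmp9 no promoter is given. The 250 bases before each start site, from RefSeq on GRCm38.p6, lie at chr13:4150647-4150896 for Akr1c18 and at chr7:3616158-3616407 for Oscar, both on the minus strand, and run 5′ to 3′ along the gene with capitals at the core on either strand.
Akr1c18: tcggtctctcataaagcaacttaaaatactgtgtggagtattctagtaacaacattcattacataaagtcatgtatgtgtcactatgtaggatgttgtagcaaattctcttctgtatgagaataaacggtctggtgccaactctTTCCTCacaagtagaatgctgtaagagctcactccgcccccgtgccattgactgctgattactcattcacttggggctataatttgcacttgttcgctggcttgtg
Oscar: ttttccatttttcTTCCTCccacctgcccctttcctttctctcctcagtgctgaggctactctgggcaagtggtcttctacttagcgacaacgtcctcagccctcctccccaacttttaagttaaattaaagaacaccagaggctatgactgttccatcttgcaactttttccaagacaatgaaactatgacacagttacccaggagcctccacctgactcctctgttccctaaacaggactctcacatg
The core began 106 bases before the start of Akr1c18 and 237 bases before that of Oscar, in the reverse orientation in both. The same 6 letters were held by 25.8% of the 11894 measured genes with a promoter window and by 6 of the 15 resorption effectors with one (40%). A match of 6 letters is a description of the sequence and no evidence of binding.

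**Figure D1:**
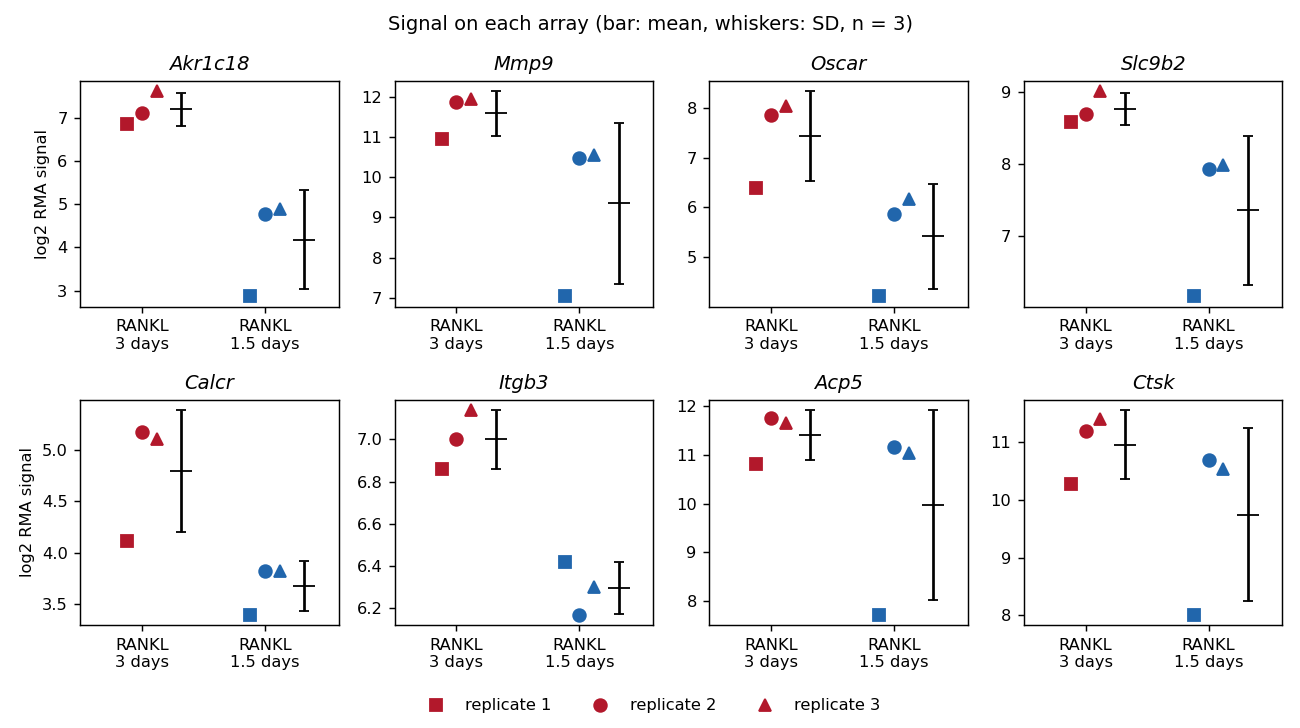
Log2 RMA signal of 8 OC genes on each array (y axis, a separate scale per gene), with RANKL 3 days left of RANKL 1.5 days, squares for replicate 1, circles for replicate 2 and triangles for replicate 3, and bars for the mean and SD of 3 arrays. The groups are apart for Akr1c18, Mmp9, Oscar, Slc9b2, Calcr and Itgb3, and replicate 1 at 1.5 days lies far below replicates 2 and 3 for Acp5 (7.72 against 11.17 and 11.03) and Ctsk.

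As a group, the resorption effectors were the list with the highest median. Of 21 measured genes, 19 were higher at 3 days on average, 8 without overlap (3.42% of all genes), 2 were lower without overlap (3.37%), and the median difference was 0.48. None passed the adjusted test, and 10 of 21 had an unadjusted p under 0.05 (5.19% of all genes). The median difference within the numbered pairs was 0.43 in replicate 1, 0.51 in replicate 2 and 0.63 in replicate 3. Left out singly, replicate 1 at 3 days gave a median of 0.77, replicate 1 at 1.5 days gave 0.31 and replicate 2 at 3 days gave 0.30, and replicates 2 and 3 alone gave 0.61.

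Ion transport, hormone receptor and adhesion genes of the OC surface were among the 8. Slc9b2, a sodium-proton exchanger abundant in OCs, had 8.59, 8.70 and 9.01 at 3 days, against 6.17, 7.93 and 7.99 at 1.5 days. Its difference was 1.40 ± 0.47 (SE). Calcr, the calcitonin receptor through which calcitonin stops resorption, had 4.11, 5.17 and 5.10 at 3 days, against 3.40, 3.82 and 3.82 at 1.5 days, a difference of 1.11 ± 0.27 (SE). Calcr was close to its level in CSF-1 alone, 3.47, 3.56 and 3.67, until after 1.5 days. Itgb3, the integrin β3 chain that ties the sealing zone to bone matrix, had 6.86, 7.0 and 7.14 at 3 days, against 6.42, 6.17 and 6.30 at 1.5 days. It differed by 0.70 ± 0.17 (SE), and its 3 arrays in CSF-1 alone, at 6.98, 6.42 and 6.36, spanned the gap.

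The classical proteases and the TRAP enzyme pointed upwards in every pair but overlapped between groups. Acp5, which encodes TRAP, had 10.82, 11.75 and 11.66 at 3 days, against 7.72, 11.17 and 11.03 at 1.5 days, a difference of 1.44 ± 0.84 (SE). Ctsk, the collagen-degrading cathepsin K, had 10.27, 11.19 and 11.40 at 3 days, against 8.01, 10.68 and 10.53 at 1.5 days, a difference of 1.21 ± 0.67 (SE). Car2, the carbonic anhydrase that supplies protons, had 6.81, 7.78 and 7.82 at 3 days, against 4.09, 7.05 and 7.05 at 1.5 days, a difference of 1.41 ± 0.75 (SE). For these 3 genes replicate 1 at 1.5 days was closer to CSF-1 alone, where Acp5 averaged 6.28, Ctsk 6.88 and Car2 3.10, than to replicates 2 and 3 at 1.5 days. Mmp14, the membrane-bound collagenase, showed the same arrangement, with 6.31, 8.22 and 8.42 at 3 days, against 4.93, 6.84 and 7.16 at 1.5 days. Bulk arrays cannot tell fewer OCs in a culture from less RNA of these genes per cell.

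Other effectors without overlap included pump, exchanger and trafficking genes. Clcn7, the chloride-proton exchanger that balances the charge of the pump, had 10.26, 10.43 and 10.59 at 3 days, against 10.16, 10.09 and 10.14 at 1.5 days, a difference of 0.30 ± 0.08 (SE). Tcirg1, the OC form of the pump's a subunit, differed by 0.22 ± 0.08 (SE), again without overlap. Rab38, a small GTPase of lysosome-related organelles, was higher by 0.90 ± 0.30 (SE), with 5.48, 6.04 and 6.37 at 3 days, against 4.69, 5.26 and 5.25 at 1.5 days. Against this direction, Rab27a, a small GTPase of vesicle secretion, had 5.83, 6.18 and 6.33 at 3 days, against 6.61, 6.50 and 6.54 at 1.5 days, and Syt7, a calcium sensor of lysosome exocytosis, was lower by 0.15 on the log2 scale. These were the 2 effectors with lower means at 3 days.

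The proton pump and the lysosome followed the effectors with small differences, most of them upwards. Of 19 measured V-ATPase subunits, 15 were higher at 3 days, 5 of them without overlap (3.42% of all genes) and none lower without overlap, and the median difference was 0.11. Atp6v0d2, the d2 subunit induced in OCs and needed for fusion, was the furthest apart, with 10.10, 9.69 and 9.64 at 3 days, against 8.81, 9.24 and 9.28 at 1.5 days (0.70 ± 0.54, SE; adjusted p = 0.83). Atp6v1d and Atp6v1c1, subunits of the cytosolic sector that are used in all tissues, differed by 0.25 ± 0.09 and 0.17 ± 0.06 (SE). Of 26 lysosomal genes, 25 were higher at 3 days, 3 of them without overlap (3.42% of all genes). Their median difference was 0.15, or 0.09 without replicate 1 at 3 days. Arsb, which removes sulphate from dermatan sulphate, led the list with 8.21, 8.36 and 8.53 at 3 days, against 7.99, 7.78 and 8.0 at 1.5 days, a difference of 0.44 ± 0.10 (SE). Hexa and Glb1, glycosidases of ganglioside breakdown, were higher by 0.34 ± 0.14 and 0.33 ± 0.13 (SE), with overlap in both. Ctsl, the cathepsin L protease, was the only gene of the 26 with a lower mean at 3 days, by -0.17 ± 0.10 (SE).

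Fusion genes gave a similar small median. Of 15 measured, 11 were higher at 3 days, 3 of them without overlap (3.42% of all genes). Only Adam12, a metalloprotease, was lower without overlap (3.37% of all genes), by -0.13 ± 0.06 (SE). The median difference was 0.11, or 0.03 without replicate 3 at 3 days. Dcstamp, the membrane protein without which precursors stay mononuclear, had 7.41, 8.89 and 8.94 at 3 days, against 6.35, 8.23 and 8.34 at 1.5 days (0.77 ± 0.59, SE; adjusted p = 0.83), and 5.06, 5.00 and 4.65 in CSF-1 alone. Ocstamp, its relative with a like role, had 6.27, 7.93 and 7.80 at 3 days, against 5.55, 7.04 and 7.19 at 1.5 days (0.74 ± 0.56, SE; adjusted p = 0.83). Both were higher at 3 days in every pair, yet replicate 1 at 3 days lay below replicates 2 and 3 at 1.5 days. Myo10, an unconventional myosin of filopodia, was apart by 0.31 ± 0.13 (SE). Podosome and sealing zone genes had a median difference of 0.01 over 27 genes. Of these, 3 were lower without overlap (3.37% of all genes), among them Pfn1, the actin monomer binder profilin 1.

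TFs that start the programme lay on both sides of their 1.5-day level. The 26 pro-osteoclast TFs had a median difference of -0.04, with 18 lower, 7 higher and 1 equal at 3 days. Without overlap, 2 were lower (3.37% of all genes) and 0 higher (3.42% of all genes). Nfatc1, the master TF of the lineage, had 8.40, 8.43 and 8.43 at 3 days, against 8.18, 8.77 and 8.76 at 1.5 days (-0.15 ± 0.15, SE; adjusted p = 0.86), and averaged 7.88 in CSF-1 alone. Fos, the AP-1 subunit c-FOS, had 6.76, 7.96 and 8.0 at 3 days, against 7.88, 8.22 and 8.14 at 1.5 days (-0.51 ± 0.31, SE). It lay below its 1.5-day value in each pair and above the CSF-1 arrays, which ranged from 6.26 to 6.55. Fosl1, another AP-1 subunit, was lower without overlap by -0.36 ± 0.12 (SE).

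Mef2d, a MADS-box TF, had the largest difference of the list in size, 1.02 ± 0.59 (SE), at low and scattered signals of 4.05, 3.01 and 5.07 at 3 days, against 3.39, 3.73 and 1.96 at 1.5 days. Myc was the furthest below its 1.5-day level among these TFs. It had 7.55, 9.24 and 9.31 at 3 days, against 9.42, 9.36 and 9.56 at 1.5 days, and 8.94, 8.84 and 8.78 in CSF-1 alone. The mean difference of -0.75 ± 0.42 (SE) owed most to replicate 1 at 3 days, and the other pairs differed by -0.12 and -0.25. Mycl, its relative L-MYC, had 5.05, 6.00 and 6.23 at 3 days, against 5.81, 6.60 and 6.48 at 1.5 days. Fosl2, the AP-1 subunit FRA-2, differed by 0.04 ± 0.33 (SE; adjusted p = 0.99), and its sign turned with the weighting of the arrays. Spi1, which encodes PU.1, and Mitf, its partner on OC genes, were lower by -0.07 ± 0.06 and -0.13 ± 0.11 (SE; adjusted p = 0.83 and 0.84).

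TFs that hold OC formation back were split. Irf8, which keeps precursors in the macrophage state, had 8.90, 8.35 and 8.39 at 3 days, against 8.33, 8.21 and 8.26 at 1.5 days, higher without overlap by 0.28 ± 0.14 (SE). Its CSF-1 arrays were at 8.87, 8.94 and 9.05, so the 1.5-day arrays were the lowest of the 9. Runx1 was lower without overlap by -0.11 ± 0.08 (SE), and Bcl6, a repressor of Nfatc1 and fusion genes, differed by -0.06 ± 0.13 (SE; adjusted p = 0.93). Over 23 genes of this kind the median difference was 0.03, with 2 higher and 2 lower without overlap (3.42% and 3.37% of all genes). RANK and NF-kB signalling genes had a median of -0.03 over 23 genes, none higher and 2 lower without overlap (3.37% of all genes). Birc3, an NF-kB target that encodes the inhibitor of apoptosis cIAP2, had 7.48, 7.50 and 7.79 at 3 days, against 7.62, 7.93 and 8.04 at 1.5 days and 6.02 to 6.39 in CSF-1 alone.

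**Figure D2:**
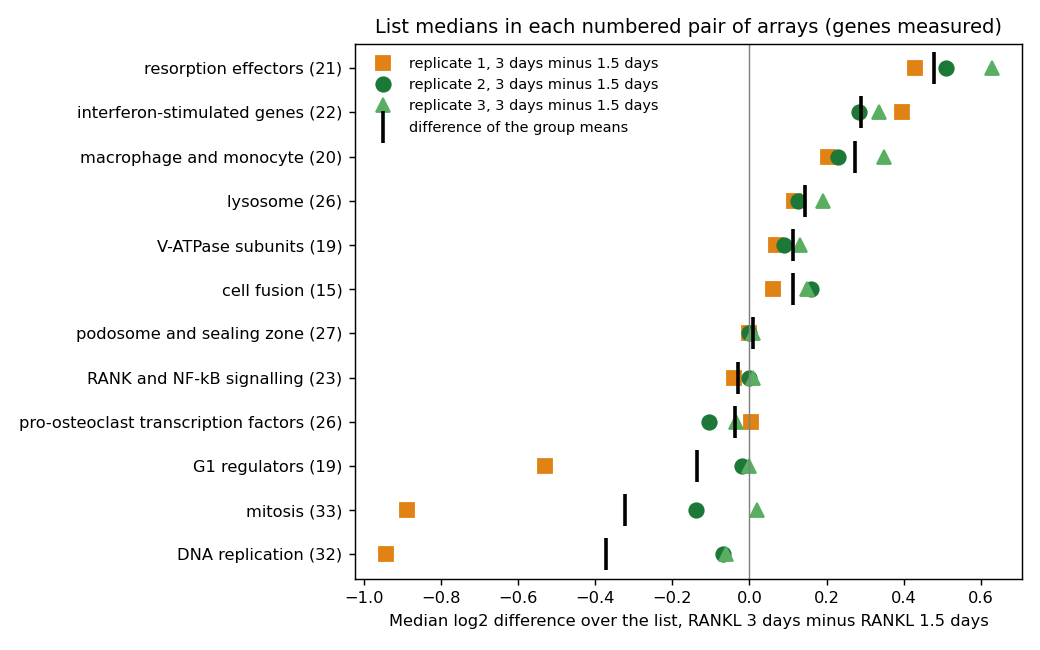
Median log2 difference of RANKL 3 days minus RANKL 1.5 days (x axis) for 12 gene lists, with squares, circles and triangles for the pairs numbered 1, 2 and 3, a black bar for the difference of the group means, and the number of genes measured in brackets. Resorption effectors and interferon-stimulated genes lie above 0 in all 3 pairs (0.43, 0.51 and 0.63, and 0.40, 0.29 and 0.34), while DNA replication genes lie at -0.95 in pair 1 and at -0.07 and -0.06 in pairs 2 and 3.

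Interferon-stimulated genes were the list with the largest share of members whose groups did not overlap. These genes are switched on by type I interferon through the ISGF3 complex, and in the OC lineage interferon-β is known as a brake that RANKL itself induces. Of 22 measured, 21 were higher at 3 days on average, 14 were higher without overlap (3.42% of all genes) and 0 lower, 19 were higher in all 3 pairs (12.3% of all genes), and the median difference was 0.29. None passed the adjusted test, and 5 of 22 had an unadjusted p under 0.05 (5.19% of all genes). The medians within pairs were 0.40, 0.29 and 0.34, and over the 9 fits that each left out an array the median lay between 0.23 and 0.35. Leaving out an array without RANKL cannot move this median, which compares the RANKL groups only, so the range rests on the other fits.

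Ifit2, an antiviral protein that binds RNA, had 9.74, 9.28 and 9.38 at 3 days, against 8.79, 8.57 and 8.48 at 1.5 days, a difference of 0.85 ± 0.25 (SE). Stat2, the subunit of ISGF3 itself, had 10.24, 9.76 and 9.77 at 3 days, against 9.48, 9.31 and 9.38 at 1.5 days (0.53 ± 0.16, SE). Irf7, the TF that amplifies interferon production, had 10.00, 10.35 and 10.42 at 3 days, against 9.31, 9.71 and 9.81 at 1.5 days (0.65 ± 0.35, SE). In these 3 genes the pairs differed by like amounts, between 0.39 and 0.95.
Ifit1, a relative of Ifit2, had 9.33, 8.84 and 8.96 at 3 days, against 8.36, 8.48 and 8.64 at 1.5 days (0.55 ± 0.25, SE). Rsad2, which encodes the antiviral enzyme viperin, had 9.14, 9.0 and 9.08 at 3 days, against 8.57, 8.43 and 8.63 at 1.5 days (0.53 ± 0.21, SE). Mx2, a dynamin-like antiviral GTPase, had 6.38, 6.28 and 6.64 at 3 days, against 6.10, 5.49 and 6.02 at 1.5 days (0.56 ± 0.19, SE). Cxcl10, a chemokine for T cells, was the exception, with 8.12, 9.92 and 9.89 at 3 days, against 9.46, 9.61 and 9.81 at 1.5 days (-0.32 ± 0.49, SE; adjusted p = 0.90). Its low mean came from replicate 1 at 3 days alone, and replicates 2 and 3 on their own gave a difference of 0.20.

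The list can also be set beside its level in CSF-1 alone. The mean log2 signal over the 22 genes was 8.49, 8.55 and 8.67 at 3 days, against 8.14, 8.23 and 8.31 at 1.5 days, and it was 7.43, 8.25 and 8.23 in CSF-1 alone. Replicate 1 of CSF-1 alone was thus far below its companions, and the 1.5-day arrays of replicates 2 and 3 were at the level of their CSF-1 counterparts.

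What these genes share upstream can be read directly. The interferon-stimulated response element, the site of ISGF3, was searched as GAAANNGAAA on both strands of the 250 bases before each start. It was found for 9 of the 18 members with a promoter window (50%), against 3.32% of all 11894 measured genes with one. Of the 9, 6 were higher at 3 days without overlap, as were 14 of all 22 members of the list and 3.42% of all genes. Members with the element thus had a share like that of the list as a whole. The stretches around the element are printed for 5 of the 6, with its letters in capitals and 30 bases on each side where the window allows.
Ifit1: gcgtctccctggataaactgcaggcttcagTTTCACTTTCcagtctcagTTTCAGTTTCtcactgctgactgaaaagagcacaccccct
Gbp3: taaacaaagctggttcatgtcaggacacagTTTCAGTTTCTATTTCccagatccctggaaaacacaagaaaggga
Gbp7: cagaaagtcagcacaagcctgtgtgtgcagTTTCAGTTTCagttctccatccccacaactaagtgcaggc
Rsad2: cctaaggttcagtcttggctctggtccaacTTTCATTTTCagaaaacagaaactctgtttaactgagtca
Stat2: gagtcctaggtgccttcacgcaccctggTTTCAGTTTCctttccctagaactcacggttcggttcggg
They lie at chr19:34640755-34640843 for Ifit1, chr3:142559969-142560043 for Gbp3, chr3:142530253-142530322 for Gbp7 and chr10:128270248-128270315 for Stat2 on the plus strand, and at chr12:26456533-26456602 for Rsad2 on the minus strand (RefSeq, GRCm38.p6). In all 5 the element reads as its reverse complement along the gene, Ifit1 holds 2 copies and Gbp3 a pair that overlaps. Gbp3 and Gbp7, guanylate-binding proteins of cell-autonomous defence, differed by 0.51 ± 0.25 and 0.34 ± 0.12 (SE), both without overlap. The letters are a property that the list brings with it and say nothing of which factor was bound in these cells.

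**Figure D3:**
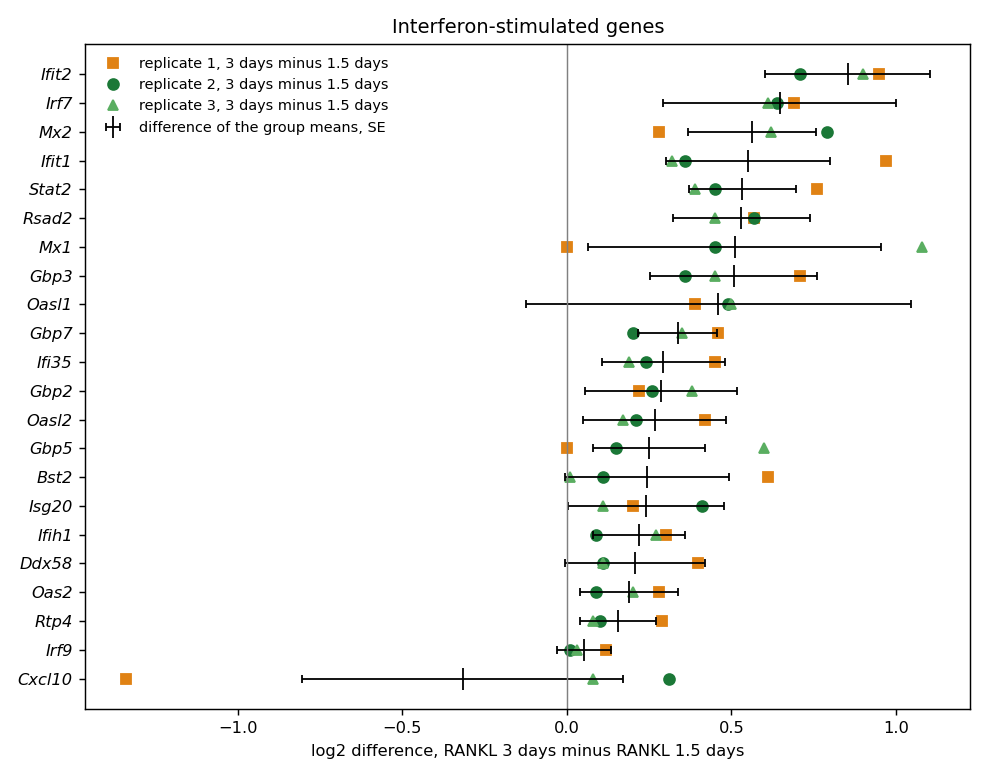
Log2 difference of RANKL 3 days minus RANKL 1.5 days (x axis) for each of 22 interferon-stimulated genes, with squares, circles and triangles for the pairs numbered 1, 2 and 3 and a black bar with whiskers for the difference of the group means and its SE. Of the 22 genes, 19 lie above 0 in all 3 pairs, and Cxcl10 lies below 0 in pair 1 only.

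Macrophage genes were also higher at 3 days than at 1.5 days. Of 20 measured macrophage and monocyte genes, 15 had a higher mean and 14 were higher in all 3 pairs (12.3% of all genes). Without overlap, 3 were higher and 2 lower (3.42% and 3.37% of all genes). The median difference over the 20 genes was 0.27. The median of the same genes was -0.20 at 3 days against CSF-1 alone and -0.56 at 1.5 days against CSF-1 alone, comparisons that share arrays with the first. Left out singly, replicate 1 at 1.5 days gave a median of 0.50, replicate 1 at 3 days gave 0.15 and replicate 3 at 1.5 days gave 0.18. Siglec1, the sialoadhesin of tissue macrophages and an interferon target, had 10.88, 10.37 and 10.38 at 3 days, against 9.41, 9.93 and 9.87 at 1.5 days (0.81 ± 0.39, SE). Mertk, the receptor for apoptotic cells, had 8.14, 7.10 and 7.23 at 3 days, against 7.22, 6.43 and 6.55 at 1.5 days (0.76 ± 0.30, SE). Mertk overlapped across the groups only because replicate 1 was high at both times, and its pairs differed by 0.92, 0.67 and 0.68. Mrc1, the mannose receptor, had 10.10, 9.29 and 9.49 at 3 days, against 9.70, 8.63 and 8.70 at 1.5 days (0.62 ± 0.35, SE). Csf1r, the CSF-1 receptor, and Adgre1, an adhesion receptor that marks mouse macrophages, were higher without overlap by 0.21 ± 0.09 and 0.22 ± 0.10 (SE), at signals above 11 in every array.

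The chemokine receptors of monocytes ran the other way. Cx3cr1, the fractalkine receptor, had 7.12, 7.99 and 8.17 at 3 days, against 8.46, 8.93 and 8.88 at 1.5 days, a difference of -1.0 ± 0.44 (SE). Ccr2, the receptor that brings monocytes out of the marrow, had 4.99, 6.00 and 5.75 at 3 days, against 6.19, 6.08 and 6.17 at 1.5 days (-0.57 ± 0.32, SE). Neither gene overlapped between the groups, and Ccr2 was highest in CSF-1 alone at 6.54, 7.47 and 7.51. Of the defining markers of other lineages, those of granulocytes and mast cells averaged between 3.44 and 3.58 per array at 3 days, against 3.61 to 3.72 at 1.5 days, and 5 of 17 were lower without overlap (3.37% of all genes). Of the 17, 7 were below the lower quartile on every array of both groups and the others were above it on at least 1, and Mmp8, the neutrophil collagenase, had 3.64, 5.53 and 5.69 at 3 days, against 4.87, 6.42 and 6.56 at 1.5 days (adjusted p = 0.83 by limma). The part of such cells in the lower values was not tested. Lymphoid markers averaged 3.02 to 3.14 at 3 days, against 3.00 to 3.16 at 1.5 days, with 6 of 10 below the lower quartile throughout. Of the 10, 8 had a lower mean at 3 days and 2 a higher one. Cd79a alone was apart (3.42% of all genes), higher at 3 days by 0.70 ± 0.36 (SE). Its pairs differed by 1.45, 0.23 and 0.41, with replicate 1 at 1.5 days low at 3.08. Cd79b, another B cell marker, was lower by -0.32 ± 0.25 (SE; adjusted p = 0.83). Erythroid and megakaryocyte markers had a median of -0.13 over 7 genes, 6 lower and 1 higher at 3 days. Those of stroma, osteoblast and endothelium had a median of -0.04 over 11 genes, 7 lower and 4 higher. Ppbp, the 1 gene of the 7 lower without overlap (3.37% of all genes), had 4.56, 4.47 and 3.92 at 3 days, against 5.06, 4.93 and 5.02 at 1.5 days. Some markers had clear signals. Pf4, the 1 gene of the 7 with a higher mean, had 5.99, 6.81 and 6.98 at 3 days, against 7.53, 6.02 and 5.54 at 1.5 days. Kdr, the 1 gene of the 11 higher without overlap (3.42% of all genes), had 7.88, 7.91 and 8.06 at 3 days, against 7.14, 7.84 and 7.79 at 1.5 days. Its pairs differed by 0.74, 0.07 and 0.27. Of the 7 that went the other way, Sparc and Cdh5 were lower by -0.20 ± 0.10 and -0.15 ± 0.09 (SE).

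Genes of DNA replication and mitosis had lower means at 3 days, and 1 array accounted for most of it. All 32 measured DNA replication genes had a lower mean, with a median difference of -0.37, and all 33 mitosis genes had one, with a median of -0.32. The groups did not overlap for 5 of the 32 and 4 of the 33 (3.37% of all genes). An unadjusted p under 0.05 (5.19% of all genes) was reached by the same 4 of 33 mitosis genes and by 1 of 32 replication genes. The latter was Fen1, the flap endonuclease, whose groups overlapped. The mean log2 signal over the replication list was 7.49, 8.37 and 8.47 at 3 days, against 8.44, 8.47 and 8.53 at 1.5 days. Over the mitosis list it was 8.37, 9.15 and 9.32 at 3 days, against 9.23, 9.27 and 9.28 at 1.5 days. Replicate 1 at 3 days lay far below every other array on both lists. Without it the medians were -0.07 for replication and -0.03 for mitosis, and with replicates 2 and 3 alone 29 of 32 and 24 of 33 genes were lower, by medians of -0.08 and -0.03.

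Uhrf1, which copies DNA methylation at the fork, had 9.21, 10.55 and 10.59 at 3 days, against 10.70, 10.70 and 10.67 at 1.5 days (-0.57 ± 0.33, SE). Mcm5, a subunit of the replicative helicase, had 8.63, 9.82 and 9.83 at 3 days, against 9.88, 10.00 and 9.98 at 1.5 days (-0.53 ± 0.29, SE). The 1.5-day arrays of both genes were tightly grouped, and replicates 2 and 3 at 3 days sat just under them. Ccna2, the cyclin A2 that carries cells through S phase into mitosis, had 9.52, 10.25 and 10.39 at 3 days, against 10.65, 10.53 and 10.40 at 1.5 days (-0.47 ± 0.20, SE). Ccnb2, cyclin B2, had 9.69, 10.21 and 10.02 at 3 days, against 10.32, 10.35 and 10.24 at 1.5 days (-0.33 ± 0.12, SE). Mcm4, Mcm2, Dut, Cdca8 and Birc5 were lower without overlap too, with differences from -0.45 to -0.38. Of the G1 regulators, 14 lower and 5 higher with a median of -0.14 over 19 genes and of -0.02 without replicate 1 at 3 days, Ccne1, E2f2 and Ccne2 differed by -0.44 ± 0.27, -0.37 ± 0.17 and -0.70 ± 0.42 (SE), and the last overlapped.

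The E2F site TTTNGCGC, searched in the same way on both strands, was held by 6 of the 28 replication genes with a promoter window (21.4%), against 1.91% of all genes with one. The sites before Mcm5 and its helicase partner Mcm6 are shown because both genes carry more than 1 match.
Mcm5: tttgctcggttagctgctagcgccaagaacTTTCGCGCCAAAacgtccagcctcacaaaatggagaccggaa
Mcm6: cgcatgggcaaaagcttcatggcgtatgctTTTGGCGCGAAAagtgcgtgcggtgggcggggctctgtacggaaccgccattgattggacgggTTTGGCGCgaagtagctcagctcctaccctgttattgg
They lie at chr8:75109326-75109397 on the plus strand and chr1:128359715-128359845 on the minus strand (RefSeq, GRCm38.p6), with capitals at the site, which overlaps its own reverse complement once in each gene. The letters TCACGTGA, an E-box read the same on both strands that TFEB and MITF are known to bind before lysosomal genes, were held by 4 of the 23 lysosomal genes with a window (17.4%), against 1.39% of all genes with one.

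**Figure D4:**
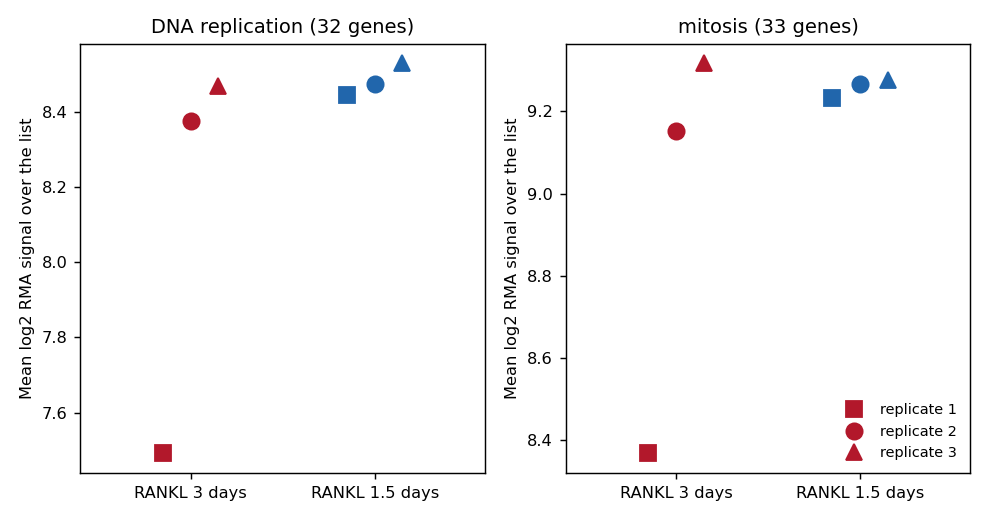
Mean log2 RMA signal over 32 DNA replication genes and over 33 mitosis genes (y axis, not starting at 0) on each array, with RANKL 3 days left of RANKL 1.5 days and a symbol for each replicate number. Replicate 1 at 3 days stands alone at 7.49 and 8.37, and the other 5 arrays lie between 8.37 and 8.53 and between 9.15 and 9.32.

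Replicate 1 also differed from replicates 2 and 3 at both times and in CSF-1 alone. Kit, the stem cell factor receptor and one of the 17 granulocyte and mast cell markers, had 8.36, 5.36 and 5.59 at 3 days, against 7.74, 5.30 and 5.32 at 1.5 days, and 8.36, 5.92 and 5.92 in CSF-1 alone. Id3, an inhibitor of basic helix-loop-helix TFs, had 4.53, 8.61 and 8.24 at 3 days, against 4.89, 7.01 and 7.14 at 1.5 days. Scd1, a desaturase of fatty acids, had 9.32, 8.30 and 8.47 at 3 days, against 8.97, 7.28 and 7.34 at 1.5 days. For Kit and Id3 the gap between replicate numbers exceeded the gap between the times (adjusted p for time 0.96 and 0.90 by limma, and 0.85 for Scd1), and what set replicate 1 apart is not given in the labels and was not tested.

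Single genes with close replicates gave the smallest p-values. Hyal1, a lysosomal hyaluronidase, had 8.19, 8.13 and 8.15 at 3 days, against 7.62, 7.49 and 7.56 at 1.5 days, a difference of 0.60 ± 0.08 (SE; adjusted p = 0.47). In CSF-1 alone Hyal1 was at 8.22, 7.97 and 7.99, so the 1.5-day arrays formed a trough. Ly6k, a GPI-anchored protein known from testis, had 4.30, 4.24 and 4.10 at 3 days, against 4.78, 4.95 and 4.81 at 1.5 days (-0.63 ± 0.08, SE; adjusted p = 0.47). Cd55, a regulator of complement, Pdzd4 and Pramel20 completed the 5, with differences of 0.34 ± 0.05, -0.31 ± 0.05 and -0.82 ± 0.13 (SE), and the signals of Cd55 and Pdzd4 were under 3.4 on all 6 arrays.

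The largest differences downwards without overlap lay mostly at low signal. Among genes whose higher group mean passed the lower quartile of its arrays, which left out 4 of the 10 that were lower by at least 1, they were those of Defb34, Olfr945, Mnd1, Gsta3, Olfr547, Olfr535, Cx3cr1, Ccl28, Vmn1r89, Pramel20, Myc and Nol12, between -1.18 and -0.74. Apart from Cx3cr1 and Myc, every one of these averaged under 5.5 at 1.5 days, where the arrays' median was near 5. Gsta3, a glutathione transferase, had 3.82, 4.27 and 4.08 at 3 days, against 4.53, 5.11 and 5.67 at 1.5 days. Among the differences upwards, Lrrtm2 and Magea4 were of the same low kind, with means of 4.59 and 3.56 at 3 days, against 3.40 and 2.44 at 1.5 days.

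Other genes with the largest differences upwards had clear signals. Mt3, a metallothionein that binds zinc and copper, had 8.81, 9.37 and 9.33 at 3 days, against 6.98, 8.02 and 8.02 at 1.5 days, a difference of 1.50 ± 0.30 (SE). Slc18a1, a vesicular monoamine transporter, had 6.02, 6.22 and 6.59 at 3 days, against 4.53, 5.20 and 5.41 at 1.5 days (1.23 ± 0.24, SE). Myo1d, a class I myosin, had 6.79, 7.33 and 7.56 at 3 days, against 5.06, 6.57 and 6.75 at 1.5 days (1.10 ± 0.44, SE). All 3 were higher by over 0.7 in each pair. Edil3, a secreted integrin ligand, had 5.03, 6.24 and 6.55 at 3 days, against 4.70, 4.90 and 4.96 at 1.5 days (1.09 ± 0.35, SE), and its smallest pair difference was 0.33.

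Set beside CSF-1 alone, the genes took different courses, described here for examples chosen after their values were seen. Akr1c18 averaged 7.20 ± 0.39 (SD, n = 3) at 3 days and 4.18 ± 1.14 at 1.5 days, and 2.80 ± 0.38 in CSF-1 alone. Its arrays in CSF-1 alone and replicate 1 at 1.5 days were below the lower quartile, where a signal cannot be told from background here. Mmp9 averaged 11.58 ± 0.55 at 3 days and 9.35 ± 2.00 at 1.5 days (SD, n = 3), and 4.34 ± 0.43 in CSF-1 alone, with most of the distance between group means covered in the first step. In replicate 1, with 10.95 at 3 days, 7.04 at 1.5 days and 4.10 in CSF-1 alone, the second step was the larger. Aldoc, a brain form of the glycolytic aldolase, had 8.77, 9.06 and 9.20 at 3 days, against 8.58, 8.49 and 8.59 at 1.5 days (0.46 ± 0.10, SE), and 8.65, 8.67 and 8.67 in CSF-1 alone. Like Calcr, Aldoc left the level of CSF-1 alone only in the second step.

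Cbr2 and Slc40a1 had their lowest mean at 1.5 days. Cbr2, a carbonyl reductase, had 8.83, 7.59 and 7.62 at 3 days, against 6.48, 6.65 and 6.76 at 1.5 days (1.38 ± 0.31, SE), and 7.43, 7.80 and 7.64 in CSF-1 alone. Slc40a1, the iron exporter ferroportin, had 8.19, 7.98 and 8.20 at 3 days, against 8.10, 6.77 and 6.95 at 1.5 days (0.85 ± 0.31, SE), and 8.90, 9.12 and 9.04 in CSF-1 alone. At 3 days Cbr2 was back at its CSF-1 level in replicates 2 and 3, and Slc40a1 was part of the way back. Csf2rb, the shared receptor chain for GM-CSF, IL-3 and IL-5, had the opposite course, with 8.83, 8.84 and 8.83 at 3 days, against 9.12, 9.17 and 9.04 at 1.5 days (-0.28 ± 0.05, SE), and 8.56, 8.55 and 8.52 in CSF-1 alone. Ccl9, a chemokine that OCs secrete in quantity, followed with 12.28, 12.51 and 12.55 at 3 days, against 12.69, 12.62 and 12.67 at 1.5 days (-0.21 ± 0.08, SE).

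**Figure D5:**
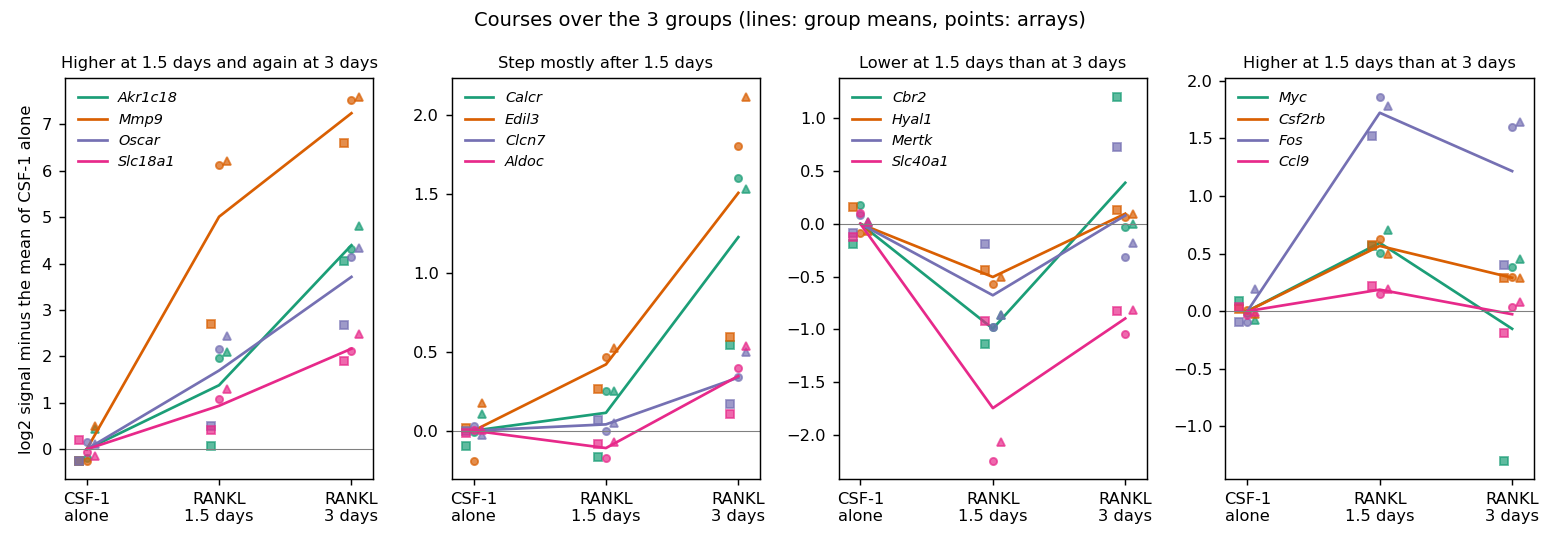
Log2 signal minus the mean of CSF-1 alone (y axis) for 16 genes in CSF-1 alone, at RANKL 1.5 days and at RANKL 3 days (x axis), with lines through group means and a symbol per array (square, circle and triangle for replicates 1, 2 and 3). Panels group genes by the shape of the course, from Akr1c18, whose 3-day mean is 4.40 above CSF-1 alone, to Csf2rb, whose 1.5-day arrays are the highest of the 9.

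Metabolic and stress genes gave few wide gaps. Redox, iron and haem genes had a median of -0.08 over 22 genes. Hmox1, which breaks down haem, had 10.09, 10.29 and 10.22 at 3 days, against 10.46, 10.54 and 10.46 at 1.5 days, lower without overlap by -0.29 ± 0.09 (SE). Steap4, a metalloreductase, was higher without overlap by 1.00 ± 0.33 (SE). Gpx1, which reduces hydrogen peroxide, had 9.90, 10.46 and 10.37 at 3 days, against 10.60, 10.66 and 10.51 at 1.5 days (-0.35 ± 0.18, SE), and the difference was -0.18 without replicate 1 at 3 days. Nqo1, a quinone reductase, had 4.08, 6.31 and 6.27 at 3 days, against 5.73, 7.03 and 7.08 at 1.5 days (-1.06 ± 0.71, SE), lower in all 3 pairs with overlap between the groups, and by -0.32 without replicate 1 at 3 days. Respiratory chain, TCA cycle and glycolysis genes had medians of -0.04, -0.03 and -0.04 over 36, 24 and 17 genes, and without replicate 1 at either time these were 0.02, 0.04 and 0.06, on the other side of 0. The 26 genes of cholesterol and fatty acid synthesis had a median of 0.08, none of them without overlap (6.79% of all genes). Their pair medians were -0.14 in replicate 1, 0.18 in replicate 2 and 0.22 in replicate 3. In replicates 2 and 3 alone all 26 were higher, by a median of 0.16. Left out singly, replicate 1 at 1.5 days gave 0.21, replicate 2 at 1.5 days 0.0042, replicate 3 at 1.5 days 0.01 and replicate 1 at 3 days 0.04. Ddit3, the stress TF CHOP, had 7.99, 7.04 and 7.20 at 3 days, against 6.79, 6.78 and 6.82 at 1.5 days (0.61 ± 0.22, SE).

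Survival genes and secreted factors completed the picture. Bcl2l1, which encodes the anti-apoptotic BCL-XL, had 7.70, 7.78 and 7.84 at 3 days, against 7.52, 7.35 and 7.55 at 1.5 days (0.30 ± 0.10, SE). Pmaip1, the pro-apoptotic NOXA, was also higher without overlap, by 0.39 ± 0.16 (SE), and Bak1, a pore-forming effector of apoptosis, was lower by -0.23 ± 0.10 (SE). Over the 15 BCL2 family genes the median was 0.06, with 8 above and 7 below 0. Of 26 cytokines and chemokines 4 were higher and 2 lower without overlap (3.42% and 3.37% of all genes), with a median of 0.00. Vegfa, the angiogenic growth factor, had 8.21, 7.28 and 7.20 at 3 days, against 7.13, 7.09 and 7.10 at 1.5 days, and Il1rn, the antagonist of the IL-1 receptor, had 8.27, 8.38 and 8.34 at 3 days, against 9.06, 8.46 and 8.50 at 1.5 days. In Vegfa and Il1rn alike, replicate 1 supplied most of the difference.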

How the data were processed

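Biotinylated cRNA from total RNA was hybridised to Affymetrix Mouse Exon 1.0 ST arrays, 1 per sample, 9 in all. The authors summarised them with Affymetrix Expression Console and RMA (background correction, quantile normalization, median polish) and deposited log2 values per transcript cluster, which ran from 0.39 to 14.09. Software versions are not stated in the labels or the methods. RMA sets all arrays to 1 distribution, so a shift of most genes would not show, and detection above background was not analysed. The study's methods state a lower CSF-1 dose than the labels.

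Of 23332 clusters, 14996 carried 1 gene symbol in the platform annotation, 1019 several and 7317 were unlisted. Symbols were updated by gene ID (14941 matched in RefSeq, GRCm38.p6). For 135 symbols the cluster with the highest mean was kept, which left 14860 genes.

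A mean per group was fitted to all 9 arrays with limma 3.58.1 in R 4.3.3 (lmFit, eBayes, 6 residual and 1.83 prior degrees of freedom, two-sided), with Benjamini-Hochberg adjustment over all genes and calls at 0.05. The step was tested on simulated data. The number of arrays limits the precision. Deviations of same-numbered 3-day and 1.5-day arrays from their group means correlated at 0.366, 0.211 and 0.146 across genes, so the numbers in the labels were taken to pair the arrays, and the replicate block was an alternative. Across numbers, 3-day replicate 2 correlated at 0.178 with 1.5-day replicate 3, and 3-day replicate 3 at 0.061 with 1.5-day replicate 2. The pairing of replicates 2 and 3 is therefore weakly founded, and the labels state none.

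Members, the 31 gene lists and the promoter motifs were chosen with earlier results of these data known. The rule named the 12 largest differences each way without overlap whose higher mean passed the arrays' lower quartile, the 5 smallest p-values, 20 fixed OC genes and up to 4 members per list with the largest differences. Other list members were named after their values were seen. Alternatives were the block, 6 arrays only, both together, a term for replicate 1 against the others, renewed quantile normalization, median centring, leaving out the dimmest 4955 or 7430 genes, trended robust variance, array weights, the mean of clusters, all clusters, the methods' t-test and each array left out. The fit of replicates 2 and 3 alone was added after seeing the data. The unpaired t-test is the methods' general test between 2 groups.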

Additional observations from a re-analysis of the deposited data

How the results depend on the processing

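No gene was called under any of the 23 alternatives, with smallest adjusted p-values from 0.086 (the methods' t-test) upwards. With the replicate block, 1148 genes had an unadjusted p under 0.05 (smallest adjusted p 0.332), against 771 without it, and the block changed no call. That count was 1287 with a term for replicate 1 against the others. Without the dimmest 7430 genes it was 371 of the 7430 left, where 372 would be expected if no gene differed. It was 1188 of 23332 over all transcript clusters and 411 by the methods' t-test. In replicates 2 and 3 alone, an alternative chosen after seeing the data, it was 1399. Leaving out single arrays gave 430 (without replicate 2 at 1.5 days) to 1660 (without replicate 2 at 3 days). Of 117 genes followed, 4 changed sign under some alternative. Many alternatives cannot move the difference of a gene's group means, so the low count says nothing of stability under them. Among them were the block, the term for replicate 1, the t-test, leaving out dim genes and leaving out an array without RANKL. Fosl2 was -0.025 with array weights and -0.16 in replicates 2 and 3 alone, and ran from -0.35 to 0.25 over single arrays left out. Cxcl10 was 0.20 in replicates 2 and 3 alone and ran from -0.62 to 0.28 in the same way, Bcl6 from -0.17 to 0.062 and Kit from -0.65 to 1.13. The DNA replication median was -0.22 with array weights, which gave replicate 1 at 3 days the lowest weight, and the effector median was 0.26 without the dimmest 7430 genes, 0.71 with array weights and 0.30 to 0.77 with single arrays left out. With 3 arrays a group and no background calls, differences at low signal are the least secure.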
